A study of Mus musculus with 8 samples.

Results

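The genes described here encode 8 proteins that circulate in blood plasma and are best known as products of the liver: Serpina1b, Apof, Itih1, F13a1, Apoa2, Hamp2, C8b and Apoh. Their expression was followed in islets of Langerhans, the endocrine clusters of the pancreas, from mice of the inbred strains AKR/J and C57Bl/6J. All mice had received a high-fat diet for 3 months, so both groups share the diet. Each strain gave 4 RNA samples, each combining the pancreases of 2 mice, and each sample had an Affymetrix array of its own, AKR/J on arrays 1 to 4 and C57Bl/6J on arrays 5 to 8. Nothing in the labels says more of the pools, so a p-value covers only how far such pools differ from each other. The members were chosen as every probe set, a group of probes summarised to 1 value, whose annotation names one of the 8 genes alone or with a paralog. That gave 12 probe sets of 45037, for 8 of 19324 named genes, 11 of them naming a single gene and 1 shared by Serpina1e, Serpina1c and Serpina1b. The 8 genes were chosen by their measured strain differences in these same arrays, so their levels and differences are given as a description, with no test.

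Hepatocytes secrete most plasma proteins: protease inhibitors that restrain neutrophil and clotting enzymes, apolipoproteins that shape lipoprotein particles, clotting and complement factors that work in cascades, and hepcidin, the hormone that sets iron release from cells. Many of these genes are switched on by the transcription factors HNF1, HNF4 and FOXA, which pancreatic endocrine cells also use, and single members of the group are made outside the liver, as factor XIII A is in macrophages and platelets. Several work only in complexes whose other chains come from separate genes, so the partners of each member were followed beside it.

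Levels are log2 values of a background-corrected intensity called GCRMA, on which 1 unit is a doubling; a level of one probe set cannot be set against that of another. A second, separately computed value, the array software's Signal, is on a linear scale, and it comes with a detection p that scores a probe set's matching probes against their mismatch controls. A probe set counted as detected on an array where that p was under 0.05. Between 43.7% and 47.0% of probe sets were detected on the AKR/J arrays, against 45.7% to 48.1% on the C57Bl/6J arrays. A probe set entered the fit across the array where at least 4 of the 8 arrays detected it, which 9 of the 12 did. Of the other 3, 2 were detected on no array and the shared one on 1.

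The 8 genes fell into 3 patterns. Serpina1b, Apof, Itih1, F13a1 and Apoa2 were higher in AKR/J islets, Hamp2 and C8b were higher in C57Bl/6J islets, and Apoh read low in both strains, between 2.42 and 2.80 on the log2 scale by its tested probe set. Transcripts of 7 of the 8 genes passed the limma threshold (adjusted p under 0.05 over all probe sets tested), 5 higher in AKR/J and 2 lower, where 16.3% of all 10891 genes tested passed it, 7.79% higher and 8.53% lower. For each of the 9 tested probe sets, the lowest array of one strain lay above the highest of the other, which held for 22.9% of all tested probe sets. Nothing is read from these counts, since the same difference chose the genes. In RNA from whole islets, fewer cells of a type and less RNA per cell cannot be told apart. For a gene with a single probe set, which 5 of the 8 were, a sequence difference between the strains under the probes cannot be told apart from a difference in transcript level. The same limit holds for Hamp2 and Apoh, where the other probe set was detected on no array. For Serpina1b, both probe sets hold probes that can also match other transcripts, and strain sequence differences under them were not tested.

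**Figure D1:**
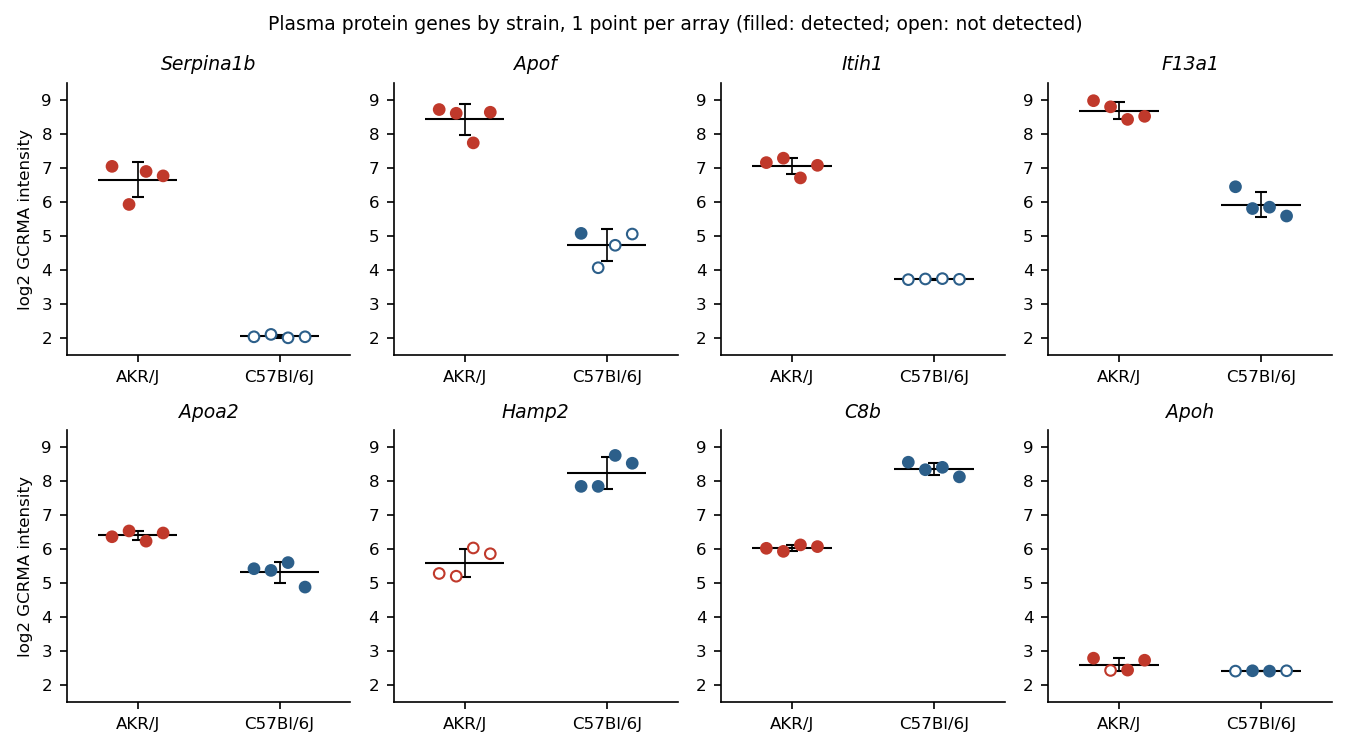
Log2 GCRMA intensity (vertical axis) of the brightest probe set of each of the 8 genes, 1 point per array, AKR/J left of C57Bl/6J; lines and bars are means and SD of 4 arrays, filled points are detected and open points are not. Serpina1b, Apof and Itih1 were detected on 4 AKR/J arrays each and on 0, 1 and 0 C57Bl/6J arrays, Hamp2 on 0 AKR/J and 4 C57Bl/6J arrays, and Apoh lay between 2.42 and 2.80 on the 8 arrays.

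Serpina1b is one of several mouse genes for alpha-1-antitrypsin, the serpin that inhibits neutrophil elastase. Its brightest probe set, 1418282_x_at, read 7.05, 5.93, 6.90 and 6.77 on the log2 scale in the AKR/J samples 1 to 4, against 2.04, 2.11, 2.01 and 2.04 in the C57Bl/6J samples 5 to 8. It was detected on all 4 AKR/J arrays and on none of C57Bl/6J, and array 2 was the lowest of the AKR/J arrays. The strain means were 6.66 ± 0.50 (AKR/J) and 2.05 ± 0.04 (C57Bl/6J; SD, n = 4 each), which makes the level at least 24.5-fold higher in AKR/J. A second probe set of the gene, 1451513_x_at, read 6.83, 5.88, 6.40 and 6.18 in AKR/J, against 2.11, 2.04, 2.10 and 2.05 in C57Bl/6J. The gap was at least 19.0-fold, and the same array was the lowest. Signal told the same order: for 1418282_x_at it averaged 157.7 ± 44.2 on the AKR/J arrays and 6.4 ± 6.7 on those of C57Bl/6J, and for 1451513_x_at 122.4 ± 26.1 on the AKR/J arrays and 1.2 ± 0.3 on those of C57Bl/6J (SD, n = 4 each).

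The alpha-1-antitrypsin genes are near copies, and the suffix _x_at marks probe sets whose probes can also match other transcripts. The probe set shared by Serpina1e, Serpina1c and Serpina1b stayed between 2.38 and 2.44 on the AKR/J arrays and between 2.35 and 2.39 on the C57Bl/6J arrays, and only array 8 detected it. A probe set shared by the paralogs Serpina1d and Serpina1a, which names no member, was detected on 4 AKR/J arrays and on no C57Bl/6J array. It read 6.56, 6.41, 6.99 and 6.23 in AKR/J, against 3.07, 3.04, 3.14 and 3.28 in C57Bl/6J, at least 10.7-fold higher in AKR/J (limma adjusted p = 9.88e-06). Which of these paralogs gave the signal could not be told from probe sets that share probes. The probe sets of Serpina1c and of Serpina1f alone were detected on no array, at means of 1.38 in AKR/J against 1.37 in C57Bl/6J for Serpina1c and of 2.17 in AKR/J against 2.16 in C57Bl/6J for Serpina1f.

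The sequence before each start site was examined for letters bound by liver-enriched factors. RefSeq (GRCm38.p6, the C57BL/6J reference genome) gives start sites for 7 of the 8 genes, with 9 promoters in all, and none was used here for Apof. The 250 bases before the Serpina1b and the Itih1 start are shown because both genes were detected in AKR/J alone and both hold the HNF1 half-site GTTAAT close to the start. Sequences run 5′ to 3′ on the gene's strand, and capitals mark the half-site, written ATTAAC where it lies on the opposite strand. The Serpina1b window is chr12:103738190-103738439 and the Itih1 window chr14:30943290-30943539, both on the minus strand.
Serpina1b: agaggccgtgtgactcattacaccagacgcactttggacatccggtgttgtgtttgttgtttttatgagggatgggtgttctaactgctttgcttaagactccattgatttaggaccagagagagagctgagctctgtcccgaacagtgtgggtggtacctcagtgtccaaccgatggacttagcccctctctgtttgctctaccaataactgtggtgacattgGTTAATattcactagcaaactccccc
Itih1: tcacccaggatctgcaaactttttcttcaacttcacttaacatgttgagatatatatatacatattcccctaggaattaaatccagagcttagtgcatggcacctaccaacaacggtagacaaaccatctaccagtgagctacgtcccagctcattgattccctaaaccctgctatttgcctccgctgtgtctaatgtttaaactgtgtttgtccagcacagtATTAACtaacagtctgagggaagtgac
The half-site begins at -26 from the Serpina1b start and at -27 from the Itih1 start. Searched on both strands, GTTAAT was found in 3 of the 7 genes, the third being C8b at -206, and in 6.43% of all 32851 promoter windows of that length. The FOXA core TGTTTAC was found in Apoa2 (-77) and Apoh (-71), against 3.17% of all windows, and the TATA box TATAAA in Apoa2 (-212), against 12.4%. The E-box CACGTG was found in 0 of the 7 genes, against 6.02% of all windows. No match overlapped another. These matches are letters in a window and were not tested for binding. GTTAAT was held by genes of both directions, since C8b was lower in AKR/J.

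All 5 alpha-1-antitrypsin genes with a promoter in the table, Serpina1a to Serpina1e, carry the half-site in the same setting. The 30 bases around it, gtggtgacattgGTTAATattcactagcaa in Serpina1b, were identical in each of the other 4 genes. Over the alignments of the whole 250-base windows, the Serpina1b promoter was 90.9% identical to that of Serpina1c, 87.5% to Serpina1a and 85.1% to Serpina1d. In Serpina1e the half-site lies at -78 from the start, so its window covers a shifted stretch and no identity is given. Serpina1c shares the 30 bases, and the probe set that names it alone was detected on no array.

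Itih1 encodes a heavy chain of the inter-alpha-inhibitors, in which heavy chains are tied by a chondroitin sulfate to bikunin, a protease inhibitor encoded by Ambp. The Itih1 probe set, 1417973_at, read 7.16, 7.29, 6.71 and 7.08 in AKR/J, against 3.72, 3.74, 3.75 and 3.73 in C57Bl/6J. It was detected on every AKR/J array and on no C57Bl/6J array. The means were 7.06 ± 0.25 (AKR/J) and 3.74 ± 0.01 (C57Bl/6J; SD, n = 4 each), with AKR/J higher by at least 3.32 on the log2 scale. Signal was 162.3 to 226.1 on the AKR/J arrays and 3.0 to 17.6 on those of C57Bl/6J.

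The other heavy chains did not share this pattern. Itih3 was detected on no array, Itih2 on 0 AKR/J and 1 C57Bl/6J arrays, and Itih4 on 0 AKR/J and 2 C57Bl/6J arrays, so none of them entered the fit. Itih4 nevertheless had a Signal of 5.7 to 40.4 in AKR/J and of 49.7 to 102.9 in C57Bl/6J, ranges that do not overlap. Itih5, a heavy-chain homologue, fell in AKR/J: its level was 4.79 ± 0.66, against 6.74 ± 0.57 in C57Bl/6J (SD, n = 4 each; 3.85-fold lower; limma adjusted p = 0.0123), and its size on the Signal scale was -0.93 as a log2 difference, against -1.94 here. Ambp was detected on all 8 arrays at 8.59 ± 0.17 on the AKR/J arrays and 8.18 ± 0.26 on those of C57Bl/6J, and missed the threshold (adjusted p = 0.0955). Tnfaip6, which moves heavy chains onto hyaluronan, was detected on 2 AKR/J arrays and 1 C57Bl/6J array.

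Apof encodes apolipoprotein F, a modulator of lipid transfer between lipoproteins. Its probe set, 1418239_at, read 8.72, 8.61, 7.74 and 8.64 in AKR/J, against 5.08, 4.07, 4.73 and 5.06 in C57Bl/6J. All 4 AKR/J arrays detected it and only array 5 of C57Bl/6J did, with detection p of 0.0562, 0.0562 and 0.13 on arrays 7, 8 and 6. The means were 8.43 ± 0.46 (AKR/J) and 4.73 ± 0.47 (C57Bl/6J; SD, n = 4 each), 12.9-fold higher in AKR/J, a size that rests on C57Bl/6J values near background. Signal averaged 463.2 ± 115.0 on the AKR/J arrays and 68.6 ± 9.1 on those of C57Bl/6J, and as a normalized Signal the excess was 6.71-fold. Array 3 stood below the other AKR/J arrays on both scales.

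Apoa2 encodes apolipoprotein A-II, a structural protein of high-density lipoprotein. It read 6.37, 6.54, 6.24 and 6.48 in AKR/J, against 5.43, 5.38, 5.61 and 4.89 in C57Bl/6J, and was detected on all 8 arrays. The AKR/J mean of 6.41 ± 0.13 and the C57Bl/6J mean of 5.33 ± 0.31 (SD, n = 4 each) differed 2.11-fold, and the strains did not overlap. Signal was 137.2 to 157.8 on the AKR/J arrays and 61.2 to 101.3 on those of C57Bl/6J. Apoa1, the main protein of the same particles, was detected only on array 5, by 1 of its 4 probe sets.

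Apoh encodes beta-2-glycoprotein I, a phospholipid-binding plasma protein, and its levels were low in both strains. Its probe set 1447719_at read 2.80, 2.44, 2.45 and 2.74 in AKR/J, against 2.42, 2.43, 2.42 and 2.43 in C57Bl/6J, and was detected on 3 AKR/J and 2 C57Bl/6J arrays. AKR/J arrays 2 and 3 lay at the level of C57Bl/6J. Its Signal ranges overlapped, at 22.4 to 44.7 on the AKR/J arrays and 14.6 to 38.8 on those of C57Bl/6J. The other probe set, 1416677_at, was detected on no array and read 2.42 to 2.44 on the AKR/J arrays and 2.38 to 2.43 on those of C57Bl/6J. Its label as a gene expressed in islets thus rests on 1 of its 2 probe sets, detected on some arrays of each strain.

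F13a1 encodes the catalytic A subunit of factor XIII, the transglutaminase that cross-links fibrin. Its probe set, 1448929_at, read 8.98, 8.80, 8.43 and 8.52 in AKR/J, against 6.45, 5.81, 5.85 and 5.59 in C57Bl/6J, and all 8 arrays detected it. The means were 8.68 ± 0.25 (AKR/J) and 5.93 ± 0.37 (C57Bl/6J; SD, n = 4 each), 6.75-fold higher in AKR/J. Signal was 432.2 to 612.7 on the AKR/J arrays and 112.7 to 155.3 on those of C57Bl/6J, a 4.02-fold excess once normalized, so the size depends on how the probes were summarised while the strains stayed apart on both scales.

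Neither the carrier subunit nor the substrate of factor XIII was detected. F13b and the fibrinogen chains Fga, Fgb and Fgg were detected on no array. Tgm2, the tissue transglutaminase, was present at 6.96 ± 0.32 on the AKR/J arrays and 7.34 ± 0.37 on those of C57Bl/6J by its brightest probe set (adjusted p = 0.277). Of its 4 tested probe sets, 1455900_x_at alone passed, lower in AKR/J (adjusted p = 0.0442), and lost the call when any single array other than 6 was left out (adjusted p = 0.0594 to 0.109).

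F13a1 is made by macrophages and by megakaryocytes, so their markers were set beside it. Of 15 macrophage markers tested, 0 rose and 7 fell in AKR/J (Adgre1, Csf1r, Lyz2, C1qb, C1qc, Ctss and Tyrobp). The summed linear level of the list was 1957 to 2527 on the AKR/J arrays and 3426 to 4547 on those of C57Bl/6J. Such sums, here and below, are carried mostly by the brightest probe sets of a list, here Ctss, and do not measure a number of cells. The median log2 difference of the 15 markers was -0.57, opposite in sign to F13a1. Of the platelet list 3 were tested and 0 called, with sums of 86.3 to 101.3 on the AKR/J arrays and 87.3 to 100.1 on those of C57Bl/6J. The 3 were Pf4 (detected on 3 AKR/J and 4 C57Bl/6J arrays, adjusted p = 0.285), Gp1bb (4 and 4, adjusted p = 0.478) and Itga2b (3 and 2, adjusted p = 0.589). Ppbp, Gp9, Gp5 and Treml1 were detected on no array.

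C8b encodes the beta chain of complement component C8, which joins the alpha chain (C8a) and gamma chain (C8g) in the membrane attack complex. Its probe set, 1427472_a_at, read 6.03, 5.94, 6.13 and 6.08 in AKR/J, against 8.56, 8.34, 8.41 and 8.13 in C57Bl/6J. All 8 arrays detected it, the AKR/J ones with detection p of 0.0142 to 0.0376. The means were 6.05 ± 0.08 (AKR/J) and 8.36 ± 0.18 (C57Bl/6J; SD, n = 4 each), 4.98-fold lower in AKR/J. Signal averaged 71.6 ± 12.5 on the AKR/J arrays and 299.6 ± 14.9 on those of C57Bl/6J. Its SD in AKR/J was the smallest of the 8 genes on the log2 scale.

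Most of its partners were not detected. C8a, C6, C9 and Hc, the gene for C5, were detected on no array. C8g was detected on all 8 arrays at 5.01 ± 0.29 on the AKR/J arrays and 5.16 ± 0.24 on those of C57Bl/6J and missed the threshold (adjusted p = 0.582).

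Hamp2 is one of a pair of mouse hepcidin genes; hepcidin, the product of Hamp, binds the iron exporter ferroportin (Slc40a1), and Hamp2 transcripts are known from mouse liver and pancreas. Its probe set 1436643_x_at read 5.29, 5.21, 6.04 and 5.87 in AKR/J, against 7.85, 7.85, 8.76 and 8.53 in C57Bl/6J. It was detected on no AKR/J array and on all 4 of C57Bl/6J. The means were 5.60 ± 0.41 (AKR/J) and 8.25 ± 0.47 (C57Bl/6J, SD, n = 4 each), at least 6.26-fold lower in AKR/J on the GCRMA scale. Signal averaged 73.9 ± 24.5 on the AKR/J arrays and 314.4 ± 58.9 on those of C57Bl/6J. Once normalized, Signal was 4.32-fold lower in AKR/J, so the bound does not carry over to that scale. Arrays 3 and 4 lay above 1 and 2 within AKR/J, as 7 and 8 lay above 5 and 6 within C57Bl/6J; the labels name no batch, and every C57Bl/6J array lay above every AKR/J array. The second Hamp2 probe set, 1456289_at, was detected on no array, at 2.40 to 2.42 on the AKR/J arrays and 2.38 to 2.42 on those of C57Bl/6J. Detection of Hamp2 in islets and its strain difference thus rest on 1436643_x_at alone, whose suffix marks probes that can also match other transcripts.

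The Hamp and Hamp2 promoters are shown because the paralog, not the member, is the hormone of iron control and the probe sets of the 2 genes behaved differently. The Hamp2 window is chr7:30924182-30924431 and the Hamp window chr7:30944030-30944279, both on the minus strand and from RefSeq (GRCm38.p6), and capitals mark GGCGCC, the core of the element through which bone morphogenetic protein signals reach Hamp.
Hamp2: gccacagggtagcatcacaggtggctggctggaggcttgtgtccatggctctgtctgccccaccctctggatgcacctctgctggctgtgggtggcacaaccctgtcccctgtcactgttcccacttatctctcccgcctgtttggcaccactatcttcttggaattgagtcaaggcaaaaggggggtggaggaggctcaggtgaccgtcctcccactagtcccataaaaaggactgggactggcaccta
Hamp: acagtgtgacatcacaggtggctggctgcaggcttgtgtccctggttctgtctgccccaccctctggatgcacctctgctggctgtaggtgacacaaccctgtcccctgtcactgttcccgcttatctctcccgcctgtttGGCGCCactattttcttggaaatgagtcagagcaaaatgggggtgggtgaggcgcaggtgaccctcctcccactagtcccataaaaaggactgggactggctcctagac
The 2 sequences were 89.7% identical (227 of 253 aligned positions). GGCGCC lies at -109 from the Hamp start and was not found, on either strand, in Hamp2 or any of the other member promoters, against 9.59% of all windows. Both probe sets of Hamp read near background: 1419196_at was detected on 0 AKR/J and 2 C57Bl/6J arrays, with AKR/J at 3.46 ± 0.01 and C57Bl/6J at 3.41 ± 0.08, and 1419197_x_at on 0 AKR/J and 3 C57Bl/6J arrays, with AKR/J at 3.49 ± 0.01 and C57Bl/6J at 3.80 ± 0.36 (SD, n = 4 each). Slc40a1 was detected on all 8 arrays, at 7.70 ± 0.48 on the AKR/J arrays and 8.27 ± 0.36 on those of C57Bl/6J, and missed the threshold by both probe sets (adjusted p = 0.189 and 0.965).

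**Figure D2:**
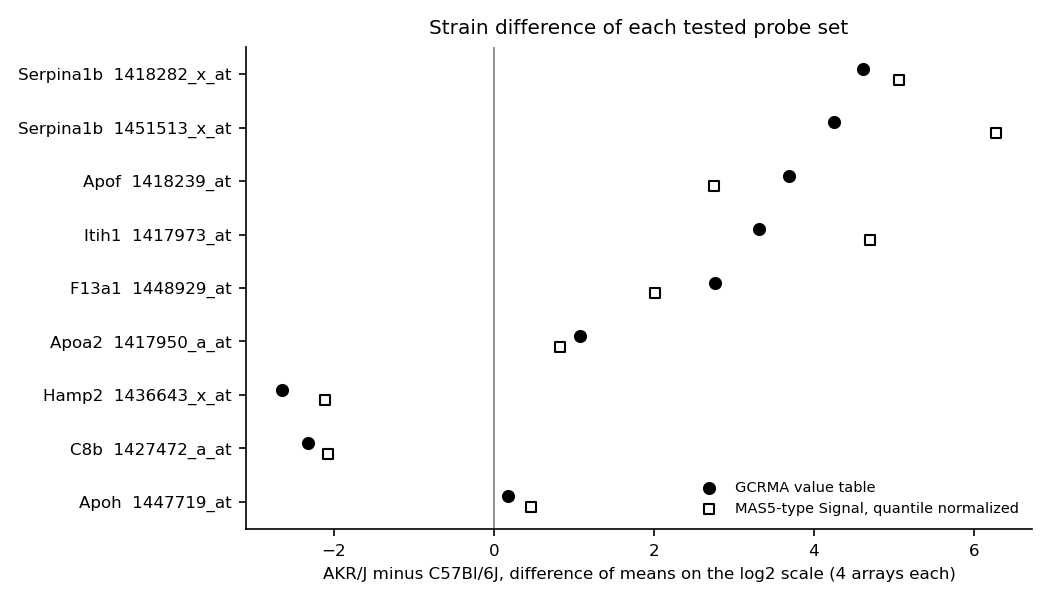
AKR/J minus C57Bl/6J difference of means on the log2 scale (horizontal axis, 4 arrays each) for the 9 tested probe sets of the 8 genes, from the GCRMA table (filled circles) and from normalized Signal (open squares). Both summaries gave the same sign for each of the 9, with a larger size by Signal where one strain was not detected (6.28 against 4.25 for Serpina1b 1451513_x_at) except Hamp2, and a smaller one for Apof (2.75 against 3.69).

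The partners of the members thus gave 3 situations, visible row by row in the map of relatives. For Serpina1b, the probe set shared by its paralogs Serpina1d and Serpina1a went the same way. The probe set that names Serpina1b together with Serpina1e and Serpina1c barely differed between strains. Its log2 difference was 0.03, and only 1 C57Bl/6J array detected it. The obligate plasma partners of F13a1 and C8b were undetected or missed the threshold. The one homologue of Itih1 that passed, Itih5, was lower in AKR/J. For Hamp2, the paralog Hamp gave log2 differences of 0.05 and -0.31 by its probe sets, neither of which entered the fit.

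**Figure D3:**
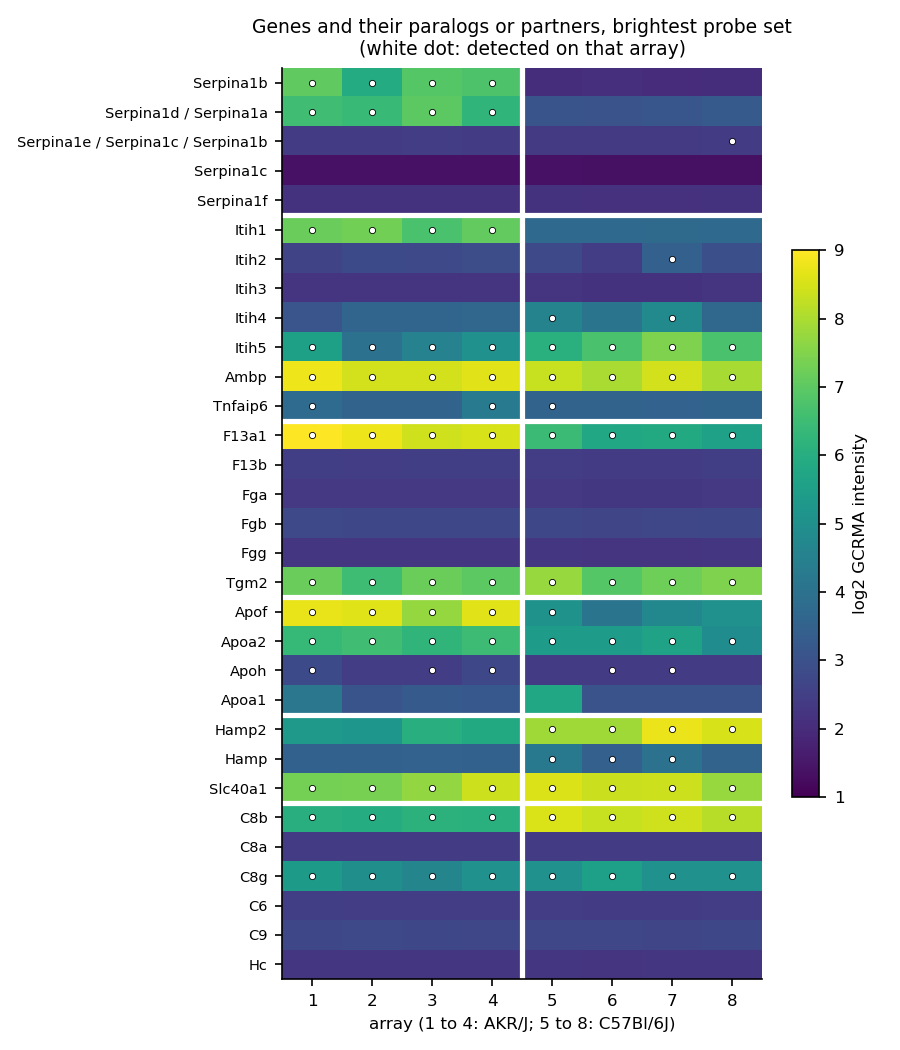
Log2 GCRMA intensity (colour) of each gene and its paralogs or partners (rows, brightest probe set) on arrays 1 to 4 of AKR/J and 5 to 8 of C57Bl/6J (columns); white dots mark detection, and colours compare arrays within a row, not rows with each other. Serpina1b and the Serpina1d and Serpina1a probe set are bright and dotted on the 4 AKR/J arrays, C8b is brighter on the 4 C57Bl/6J arrays, and F13b, Fga, Fgb, Fgg, C8a, C6, C9 and Hc carry no dot.

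Beyond direct partners, 212 other genes of the same systems were followed in 8 lists. Of these 182 had a probe set of their own, and 69 of the 182 were detected on no array; 87 could be tested. In AKR/J 5 of the 87 rose (5.75%) and 19 fell (21.8%), with a median log2 difference of -0.12, against 7.79%, 8.53% and 0.00 over all genes tested. The 5 that rose were Vtn, Clu, Ttr, Crp and Acvr1, by 1.20-fold to 1.85-fold.

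Among other lipoprotein genes, 6 were tested, 0 rose and 3 fell in AKR/J. Lipoprotein lipase (Lpl) read 10.07 ± 0.25 on the AKR/J arrays and 11.21 ± 0.37 on those of C57Bl/6J (2.21-fold lower; adjusted p = 0.00734). Phospholipid transfer protein (Pltp) was 1.60-fold lower (adjusted p = 7.40e-04) and apolipoprotein D (Apod) 1.63-fold lower (adjusted p = 0.0171), a call lost with no filter on dim probe sets (adjusted p = 0.0514) and with normalized Signal (adjusted p = 0.079). Apoe read 8.52 ± 0.23 on the AKR/J arrays and 8.77 ± 0.11 on those of C57Bl/6J (adjusted p = 0.215), and Apoa5, Apob, Apoc1, Apoc3, Apoc4 and Apom were detected on no array.

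Of other serpins and plasma inhibitors 4 were tested. Serpinf1 (pigment epithelium-derived factor) fell 1.92-fold in AKR/J (adjusted p = 0.0297), a call lost when array 2, 5, 6, 7 or 8 was left out (adjusted p = 0.0587 to 0.0756). Serpina10, the protein Z-dependent inhibitor and a neighbour of Serpina1b in the genome, was bright at 10.66 ± 0.08 on the AKR/J arrays and 10.85 ± 0.08 on those of C57Bl/6J (adjusted p = 0.106). The genes for alpha-2-macroglobulin (A2m), heparin cofactor II (Serpind1) and fetuin-A (Ahsg) were among 14 of the list detected on no array.

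Of 11 clotting and fibrinolysis genes tested, 0 rose and 1 fell in AKR/J. Tissue factor (F3), which starts clotting, read 4.93 ± 0.51 on the AKR/J arrays and 6.29 ± 0.28 on those of C57Bl/6J (2.57-fold lower; adjusted p = 0.0106). Thrombomodulin (Thbd) read 8.76 ± 0.22 on the AKR/J arrays and 8.37 ± 0.13 on those of C57Bl/6J and missed the threshold (adjusted p = 0.0714). The list's median difference was 0.02, and 15 of its genes were detected on no array.

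Of 13 complement genes tested, 2 rose and 5 fell in AKR/J. The terminal-pathway inhibitors vitronectin (Vtn, 7.85 ± 0.30 on the AKR/J arrays and 6.96 ± 0.30 on those of C57Bl/6J; 1.85-fold; adjusted p = 0.0176) and clusterin (Clu, 1.36-fold; adjusted p = 0.0376) rose. C1qc, 3.50-fold lower (adjusted p = 2.19e-04), C1qb, 2.33-fold lower (adjusted p = 0.00369), C1s1, Cfi and Cd59a fell. For C1qc the log2 difference was -1.10 with normalized Signal, against -1.81 here. C1qa did not differ, at 9.15 ± 0.17 on the AKR/J arrays and 9.16 ± 0.15 on those of C57Bl/6J (adjusted p = 0.973). C1qa, C1qb and C1qc are also among the macrophage markers given above. Vtn lost its call without array 1 (adjusted p = 0.0505), Clu without array 1, 2, 3, 4 or 8, C1s1 without any array but 1, and Cfi without array 1, 2, 3, 4 or 6 (adjusted p = 0.0576 to 0.0987 for these 3).

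Among carriers, hormones and acute phase proteins, 2 of 12 rose and 2 fell. Transthyretin (Ttr), an abundant islet product, was 1.20-fold higher in AKR/J by its brightest probe set (limma adjusted p = 0.0308). Of its 4 tested probe sets 1 passed, with log2 differences from 0.01 to 0.26, and the mean over them missed the threshold. C-reactive protein (Crp) was at least 1.35-fold higher at a level near background (2.94 ± 0.23 in AKR/J, 2.51 ± 0.06 in C57Bl/6J, limma adjusted p = 0.0383). Both lost the call when arrays were left out, Ttr for any array but 3 (adjusted p = 0.0507 to 0.0876) and Crp for each C57Bl/6J array (adjusted p = 0.0598 to 0.0897). Igf1 was detected on no AKR/J array and on 4 C57Bl/6J arrays, at least 4.59-fold lower in AKR/J (adjusted p = 0.00367). Only 1 of its 4 tested probe sets carried that call. With normalized Signal that probe set gave a log2 difference of -2.23, against -2.20 here (limma adjusted p = 0.00713 with Signal). Another probe set was the gene's brightest with Signal and gave -0.20 (adjusted p = 0.496). The gene's call was also lost without array 2, 5, 7 or 8 (adjusted p = 0.131 to 0.152). Leaving out a C57Bl/6J array took the calling probe set out of the fit, so the values without array 5, 7 or 8 come from another probe set. Igfals, the acid-labile subunit that holds Igf1 in plasma, was 1.90-fold lower (adjusted p = 0.0115).

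Of 23 iron genes tested, the transferrin receptor Tfrc had the largest difference. It read 5.86 ± 0.48 on the AKR/J arrays and 8.40 ± 0.35 on those of C57Bl/6J (5.83-fold lower; adjusted p = 5.99e-04), and its 3 tested probe sets were all lower in AKR/J, 2 of them past the threshold. With normalized Signal its log2 difference was -1.75, against -2.54 here (adjusted p = 0.00166 with Signal). Hfe, a partner of the receptor, was 1.61-fold lower by its brightest probe set (limma adjusted p = 0.0296). Its 2 tested probe sets both passed, with log2 differences of -0.69 and -2.04. Acvr1, a receptor for bone morphogenetic proteins, was 1.31-fold higher by its brightest (limma adjusted p = 0.0442), and its 2 tested probe sets passed at 0.39 and 0.58. The calls of Hfe and Acvr1 as genes were lost when single arrays were left out (adjusted p = 0.0513 to 0.108). Tmprss6, the liver protease that restrains hepcidin, was detected on no array, and the targets Id1, Smad6 and Smad7 of the hepcidin-inducing pathway gave adjusted p of 0.418, 0.445 and 0.952.

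Of 15 liver-enriched transcription factors tested, 0 rose and 4 fell in AKR/J, with a median of -0.30. Gata6 was 2.34-fold lower (adjusted p = 0.0118) and the bile acid receptor Nr1h4 at least 1.98-fold lower, detected on 0 AKR/J and 4 C57Bl/6J arrays (adjusted p = 0.0108). Foxa2 (10.12 ± 0.11 in AKR/J, 10.45 ± 0.13 in C57Bl/6J; adjusted p = 0.0496) and Nr5a2 (adjusted p = 0.0459) lost their calls when single arrays were left out (adjusted p = 0.0692 to 0.124). Hnf4a, which drives many of these genes in liver, read 5.86 ± 0.34 on the AKR/J arrays and 6.16 ± 0.07 on those of C57Bl/6J (adjusted p = 0.247).

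**Figure D4:**
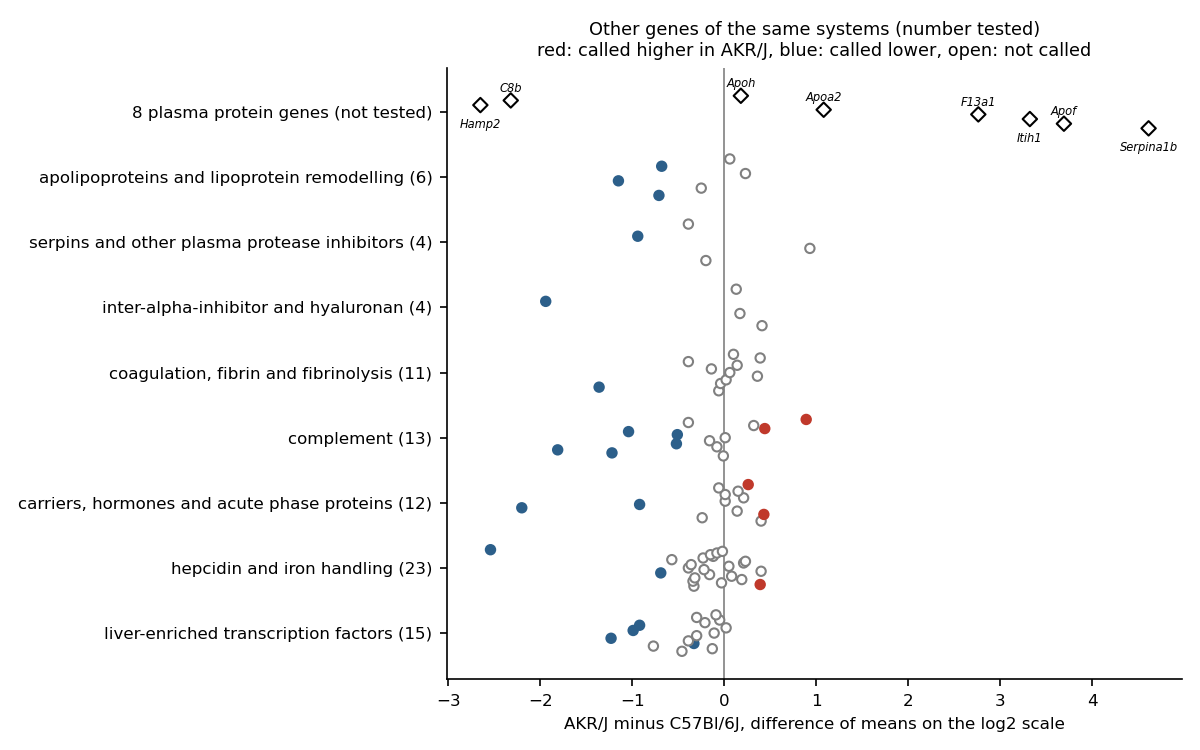
AKR/J minus C57Bl/6J difference of means on the log2 scale (horizontal axis) for each tested gene of the 8 lists (rows, number tested in brackets; filled red called higher, filled blue called lower, open not called) and for the 8 plasma protein genes (diamonds, top row, no test). The 5 called higher lie between 0.26 and 0.89, and the 19 called lower between -2.54 and -0.33, while the diamonds run from -2.65 for Hamp2 to 4.61 for Serpina1b.

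Markers of other cells were set beside the members, and their part in the members' differences was not tested. Of 22 hepatocyte markers with a probe set of their own, 11 were detected on no array, among them Apob, Fga, Fgb, Fgg, Ahsg and Cps1. The summed linear level of the list was 403.9 to 522.1 on the AKR/J arrays and 458.9 to 540.3 on those of C57Bl/6J, and of 6 tested 0 rose and 1 fell (Arg1, 1.94-fold; adjusted p = 0.0313). With normalized Signal, Tat was called in its place, higher in AKR/J (adjusted p = 0.0225), and Arg1 was not (adjusted p = 0.0976). Albumin (Alb), the defining hepatocyte transcript, was detected on 4 AKR/J and 0 C57Bl/6J arrays near background, at 3.99 ± 0.29 on the AKR/J arrays and 3.59 ± 0.12 on those of C57Bl/6J, and missed the threshold (adjusted p = 0.107). Of 19 acinar markers, from the enzyme-secreting cells around the islets, 1 rose (Ctrc) and 18 fell in AKR/J. With normalized Signal 10 of the 18 again passed as lower and 1, Ctrb1, turned in sign. The rest of the 18 were still lower there but missed the threshold. The summed linear level of the 19 markers was 302123 to 356886 on the AKR/J arrays and 509607 to 519300 on those of C57Bl/6J. Their median log2 difference was -0.69, against -2.65 for Hamp2 and -2.32 for C8b. That median hides a wide range: the 18 that fell ran from -1.99 for Spink1 to -0.33 for Ctrb1, and Ctrc stood at 4.02. Of 4 duct markers tested 0 rose and 1 fell (Tspan8), of 7 fibroblast markers 0 rose and 2 fell (Dcn and Pdgfra), and of 11 endocrine markers 1 rose (Ppy) and 2 fell (Ucn3 and Slc2a2).

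Genes next to the members were compared to see whether a difference extended along the chromosome. The 3 nearest tested genes on each side of each member gave 48 neighbours, of which 7 passed the threshold (14.6%, against 16.3% of all genes), 2 higher and 5 lower in AKR/J. None of the 6 neighbours each of Serpina1b, Itih1, Apoa2 and Apoh passed. Both genes called beside F13a1 were lower in AKR/J, opposite to F13a1 itself: Ly86, a partner of an innate immune receptor, by 2.75-fold (adjusted p = 0.00155) and the iron-sulfur cluster factor Lyrm4 by 2.63-fold (adjusted p = 7.10e-04). The 3 called beside C8b were lower as C8b was, Prkaa2 by 1.62-fold (adjusted p = 0.0177), Usp24 by 1.58-fold (adjusted p = 0.0102) and Oma1 by 1.42-fold (adjusted p = 0.0378). Cnpy2 near Apof was 1.26-fold higher in AKR/J (adjusted p = 0.0389) and Ffar2 near Hamp2 1.43-fold higher (adjusted p = 0.0296). The Usp24 call was lost with normalized Signal, where its log2 difference was -0.03 against -0.66 here (adjusted p = 0.935), and with the mean over its probe sets (-0.38; adjusted p = 0.138). Without single arrays the calls of Cnpy2, Ffar2, Oma1 and Prkaa2 were lost (adjusted p = 0.0501 to 0.103). Those of Ly86 and Lyrm4 held in each alternative that gave a value.

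Within strains the members did not share one order of arrays. Array 2 was the lowest AKR/J array for Serpina1b, Hamp2, C8b and Apoh, and array 3 for Apof, Itih1, F13a1 and Apoa2. After the mean of each strain was removed, the genes whose log2 values followed a member most closely over the 8 arrays were Cwc25 (Pearson r = 0.984) and Zbtb39 (0.977) for Serpina1b and D6Wsu163e (0.990) and Golga5 (0.977) for Itih1. They were Pdap1 (0.975) and Zfp433 (0.964) for Apof, Cstf1 (0.983) and Scfd2 (0.969) for Apoa2, and Slc22a2 (0.993) and Sf3b4 (0.987) for Apoh. For F13a1 they were Rnf215 (0.974) and Zkscan8 (0.973), for C8b Ghitm (0.975) and Tbk1 (0.963), and for Hamp2 Ramp1 (0.996) and Slc39a1 (0.988). These are the highest values among the genes tested, over arrays that share their RNA and normalization, and no member was among the genes closest to another.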

How the data were processed

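Total RNA of islets was measured in 8 samples, grouped by the strain in their titles, 4 of AKR/J and 4 of C57Bl/6J; the labels give 5 µg of RNA per array. The deposited value table holds linear intensity values, which GCRMA produced from the probes by correcting background, normalizing and summarising (method per the submitters' processing notes, version not stated there). Per the file headers, the per-array files hold Signal, a second intensity value, and a detection p-value from the array software. Values of the table were log2-transformed, with no further normalization.

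Of 45101 probe sets 64 controls were left out. By platform annotation 34945 name 1 symbol, 932 several and 9160 none; 34754 matched a RefSeq gene by identifier. The 20772 probe sets detected on at least 4 arrays entered limma (lmFit, eBayes; AKR/J minus C57Bl/6J), with Benjamini-Hochberg adjustment over all of them and a threshold of 0.05. A gene was represented by its brightest tested probe set, chosen anew in each of the alternatives listed below. Where the dimmer strain was detected on none of its arrays, the fold is a bound against its own value or, if higher, the lowest detected value of each array; these lowest values, 0.618 to 0.856, were below each member's own.

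The members and gene lists were chosen with earlier results of these data known. Named genes are the members and their probe sets, their paralogs and partners, up to 6 called genes of each list, called neighbours and the 2 genes most like each member. Promoter windows came from RefSeq. Alternatives were the filter on dim probe sets, quantile-normalized Signal floored at percentile 5, further normalization or centring, the variance model, array weights, the mean over probe sets and leaving out single arrays. The fit was also run on simulated data of 20772 probe sets, few of them changed, with normal noise of the fit's own variances. It recovered 43.3% of those changed 1.5-fold, 85.1% at 2-fold and 98.5% at 4-fold, with 6 false calls. These rates hold for that setting, in which far fewer probe sets differed than were called in the real arrays. The number of arrays limits the precision. R 4.3.3, limma 3.58.1, Python 3.11.15 and matplotlib 3.10.9 were used.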

Additional observations from a re-analysis of the deposited data

Results flagged for a closer look

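Of 54 sets of 4 arrays examined, 3 held an array whose gap to the nearest other exceeded Dixon's critical share of the whole range, which chance gives in about 1 of 20 sets. Apof read 7.74 on AKR/J array 3, against 8.61 to 8.72 on the other AKR/J arrays. Ttr read 15.08 on the same array, against 15.21 to 15.24. Serpinf1 read 7.17 on C57Bl/6J array 7, against 6.88 to 6.91 on the other C57Bl/6J arrays.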

How the results depend on the processing

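No paired analysis was possible because the sample numbers in the titles run from 1 to 8 and none is shared between the strains. The difference of each of the 9 tested member probe sets kept its sign under every alternative that gave a value. Normalized Signal moved each by more than the SD pooled over both strains: Serpina1b 5.06 and 6.28 against 4.61 and 4.25 on the log2 scale, Itih1 4.70 against 3.32, Apof 2.75 against 3.69, F13a1 2.01 against 2.76, Apoa2 0.83 against 1.08, Hamp2 -2.11 against -2.65, C8b -2.07 against -2.32 and Apoh 0.46 against 0.18. The cause was not tested. A probe set detected in only one strain left the fit when an array of that strain was left out, which gave no value there.

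Genes called over the whole array numbered 1777, and 1188 to 1651 with 1 array left out. Pathway genes called higher in AKR/J numbered 5, against 1 with no filter, 3 with detection on all 8 arrays, 1 with Signal and 1 to 3 with 1 array left out. Those called lower numbered 19, against 12 to 16 with 1 array left out, where fewer samples entered the fit. Neighbours called numbered 7, against 3 with no filter, where more probe sets were tested, and 3 to 8 with 1 array left out. Of 33 named calls outside the members none turned in sign, and 13 held under every alternative that gave a value. These were Serpina1d and Serpina1a by their shared probe set, Itih5, F3, Lpl, Pltp, C1qb, C1qc, Igfals, Tfrc, Gata6, Nr1h4, Lyrm4 and Ly86. The shared probe set, F3, Nr1h4 and Ly86 had no value with detection required on all 8 arrays. The shared probe set also had none without an AKR/J array, and Nr1h4 none without a C57Bl/6J array. Of 508 values of the 33 calls under alternatives, 375 passed the threshold and 133 did not. Of the calls that did not hold, Apod, Cd59a, Clu, Crp, Ttr, Acvr1, Hfe, Foxa2, Cnpy2, Ffar2, Usp24 and 1 probe set of Tgm2 were among those lost with normalized Signal. Igf1 also lost its call as a gene there, where another of its probe sets was the brightest, while the calling probe set still passed. The depth of an array is signal over background, and levels of probe sets detected on no array of a strain, as Serpina1b in C57Bl/6J, cannot be ordered.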
